A study of Mus musculus with 9 samples.

Results

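The comparison described here sets the hearts of diabetic mice that received spermine (SPM) against the hearts of healthy control mice (CK), by RNA sequencing. It comprised 6 of the 9 libraries of the series, SPM replicates 1 to 3 and CK replicates 1 to 3, chosen by the group in their labels, and the 3 libraries of diabetic mice without spermine were not used here. All mice were male C57BL/6J (labelled C57BL/6), 6 to 8 weeks old at the start. CK mice were injected with citrate buffer. SPM mice were given streptozotocin, a toxin of the insulin-producing beta cells, at 180 mg/kg. They also received spermine at 1 mg/kg, daily over the 2 weeks that led up to the toxin and then on alternate days through the following 12 weeks. As a model of type 1 diabetes the SPM group thus joins streptozotocin, 12 weeks of diabetes and spermine, and the parts of these agents in a difference from CK cannot be told apart in this comparison. The methods give 3 mice per group in the RNA paragraph and 18 hearts divided into 3 mixed samples of 6 hearts in the statistics paragraph, so a library may be a mouse or a pool. Nothing in the labels says that the libraries are separate pools or cages, so p-values measure the spread between these libraries.

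The healthy adult heart burns mainly fatty acids, and insulin sets how much glucose and fat its muscle takes up. In the diabetic heart, where insulin is lacking, fat and ketone bodies reach the muscle in excess, and the adult mouse myosin Myh6 is known to give way to the slower myosin Myh7. Spermine is a polyamine, made from ornithine through putrescine and spermidine, that binds nucleic acids and channels such as inward-rectifier potassium channels.

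The libraries held 29901300 to 33990348 counts on genes, and gene levels are given as CPM (a gene's counts relative to the library total, with TMM factors of 0.966 to 1.04 that equalise the libraries), in the order of replicates 1, 2 and 3. The tissue labels name heart and myocardium, whereas the extraction protocol in the labels speaks of retinas. Heart muscle genes were abundant in every library, with Myh6 at 14043 CPM or more. Of the retina markers, Crx was at 0 counts in all 6 libraries, and only Sag of the 8 measured markers passed the filter on low counts. SPM replicate 2 stood apart from what a separate sample gives. Its counts were set against a mixture of 44.6% of SPM replicate 1 and 55.4% of SPM replicate 3, the best mixture of that pair. The median squared deviation over 10903 genes was 0.875 times the median that counting noise alone gives. The 59 other ways of setting any library against a mixture of any pair gave 2.75 times or more. Of the 2656 genes without a count in SPM replicates 1 and 3, 30 had a count in SPM replicate 2. The same number was 725 of 3351 for SPM replicate 1 and 485 of 3111 for SPM replicate 3, each against the rest of its group. For CK replicates 1, 2 and 3 it was 616 of 2774, 1162 of 3320 and 683 of 2841. The independence of SPM replicate 2 is therefore in doubt, and a p-value that counts it as a separate library may be too small. Numbers of called genes are given with it and without it for the whole comparison and for most lists. Fold changes, SE and adjusted p of single genes are from all 6 libraries unless a left-out library is named. CK replicate 2 also stood apart, with lung genes such as Scgb1a1 (31.4 CPM) and Sftpc (15.3 CPM) that were at 0 in the other 5 libraries, and without it 1256 genes were called by the criteria given next.

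SPM hearts differed from CK hearts at 1342 of the 14574 genes tested (9.21%), of which 741 were upregulated (5.08%) and 601 were downregulated (4.12%). A gene was called at a Benjamini-Hochberg adjusted p below 0.05 in edgeR's quasi-likelihood test and a fold change of at least 1.5. Without SPM replicate 2, 771 of 14897 genes were called (5.18%), 432 upregulated (2.9%) and 339 downregulated (2.28%), and 742 genes were called in both fits, which is 55.3% of the calls with replicate 2 and 96.2% of those without it. The 3 SPM libraries lay all above or all below the 3 CK libraries for 46.3% of all genes tested and for 1328 of the 1342 called. With the independence of SPM replicate 2 in doubt, a lack of overlap may rest on SPM replicates 1 and 3 alone. Called genes had a median absolute log2 fold change of 0.90, and 123 of them differed at least 4-fold, 76 upwards and 47 downwards. SPM replicate 1 lay farther from the CK mean than SPM replicate 3 did for 69.6% of the upregulated and 74.4% of the downregulated genes, against 57.2% of all genes tested. Genes rich in GC were lower in SPM (Spearman correlation of the log2 fold change and GC content -0.37 across 14564 genes, which are not independent replicates), with a median GC content of 46.0% in upregulated and 53.5% in downregulated genes. With an offset for GC content 1056 genes were called (7.25%), 601 upregulated (4.12%) and 455 downregulated (3.12%), and 894 of them were called without the offset too.

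Among the largest rises, Myh7, the slow beta-myosin heavy chain, was at 274, 130.3 and 217 CPM in CK and at 4895, 3393 and 2052 CPM in SPM, a 16.6-fold rise (log2 fold change 4.06 ± 0.36 SE, adjusted p = 0.000512). Cyp1a1, an oxidase induced through the aryl hydrocarbon receptor, was at 1.99, 4.34 and 3.44 CPM in CK and at 99.3, 61.2 and 30.8 CPM in SPM, 19.4-fold higher (4.28 ± 0.45, adjusted p = 0.000927). Both genes were highest in SPM replicate 1 and lowest in SPM replicate 3. The largest rises and falls were chosen among called genes whose SPM and CK libraries did not overlap. Without SPM replicate 2 the log2 fold changes were 4.07 ± 0.38 for Myh7 (adjusted p = 0.00274) and 4.31 ± 0.46 for Cyp1a1 (adjusted p = 0.00333). Cxcl13, a chemokine that draws B cells, was at 0.706, 1.11 and 0.262 CPM in CK and at 60.9, 31.6 and 5.91 CPM in SPM. Dusp4, a phosphatase of MAP kinases, was at 6.89, 4.26 and 7.50 CPM in CK and at 63.1, 50.2 and 37.6 CPM in SPM. SPM replicate 1 was highest and SPM replicate 3 lowest for both genes, and the spread in SPM was larger for Cxcl13. Saa3, an acute-phase serum amyloid, and Itih3, a heavy chain that binds hyaluronan, had the same order of SPM libraries as Cxcl13, with 10.5, 6.51 and 1.84 CPM and with 7.99, 4.18 and 1.51 CPM. The summed level of a list of liver genes, described below, had that order too (431, 220.5 and 47.9 CPM in SPM). The order was not particular to these genes, as Myh7, Cyp1a1 and Dusp4 had it as well. The part of liver RNA in the rises of Saa3 and Itih3 was not tested. Chil3, a chitinase-like protein of myeloid cells, was even across SPM (5.70, 6.22 and 6.67 CPM) and at 0.257, 1.08 and 0.0328 CPM in CK. S100a9, a calcium-binding protein of neutrophils, rose by 3.09 ± 0.35 on the log2 scale. The calls of the remaining genes among the 10 largest rises rested on single libraries. Marco, a scavenger receptor of macrophages, lost its call without CK replicate 1, CK replicate 3, SPM replicate 1 or SPM replicate 2 (adjusted p between 0.0518 and 0.0775). Hspa4l, a heat shock protein, lost it without CK replicate 1 (adjusted p = 0.0633) or CK replicate 2 (adjusted p = 0.0647).

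Among the largest falls, Aplnr, the receptor of the peptide apelin, was at 133, 99.3 and 82.3 CPM in CK and at 9.41, 13.6 and 17.5 CPM in SPM (log2 fold change -2.96 ± 0.24, adjusted p = 0.000374). It was the most abundant of the 10 genes with the largest falls. Without SPM replicate 2 its log2 fold change was -2.97 ± 0.29 (adjusted p = 0.00292). Arsi, of the arylsulfatase family, was at 4.81, 4.57 and 3.57 CPM in CK and at 0.372, 0.259 and 0.690 CPM in SPM (-3.29 ± 0.34). Spib, a transcription factor of B cells and plasmacytoid dendritic cells, fell by 2.36 on the log2 scale, and Pla2g2d, a secreted phospholipase, fell by 2.14. Sez6l2 and Apol9a fell by 2.10 and 2.09 on the same scale, and Crybb1, a beta crystallin, fell by 2.31. The unnamed transcripts Gm28979 (-3.87 ± 0.49) and 2310020H05Rik (-2.12 ± 0.25) were also among the 10, and F730311O21Rik lost its call without CK replicate 1, CK replicate 2 or SPM replicate 2 (adjusted p between 0.0537 and 0.0719). The labels and the methods name different library kits and no source used here says that strand was used in counting, so values of these transcripts are uncertain where they overlap with other genes.

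**Figure D1:**
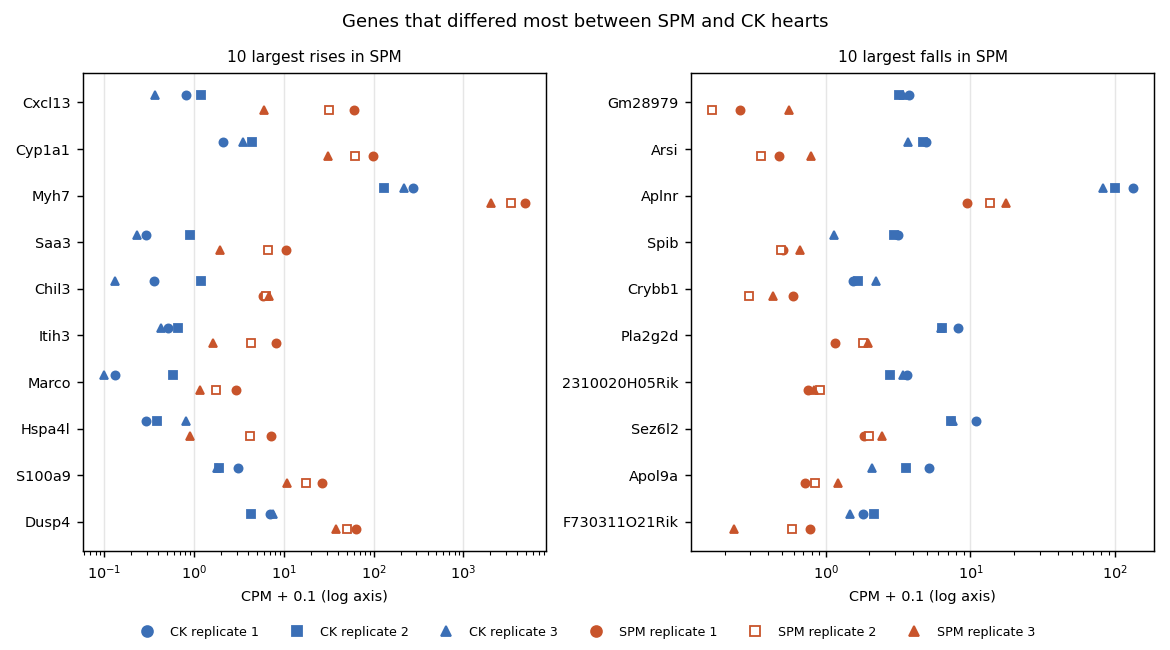
Levels of the 10 genes with the largest rises (left) and the 10 with the largest falls (right) in each library, as CPM plus 0.1 on a log axis, with CK in blue, SPM in orange-red and SPM replicate 2 as the open square. Each point is 1 library. SPM replicate 2 lies between the other SPM libraries for each of the 10 rises. CK and SPM do not overlap for any of the 20, because the genes were chosen among those without overlap.

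The genes of 31 lists were counted beside all genes tested. The lists were chosen with earlier results of these data known, so their shares are a description and not a test. A gene could also pass the filter on low counts through the group where it was high, which affects lists of low level such as that of neutrophils. Lists with many upregulated members were those of neutrophils (10 of 11 tested), the circadian clock (10 of 17), the mitochondrially encoded respiratory chain (7 of 13) and glucocorticoid-responsive genes (6 of 13), against 5.08% of all genes. Lists with many downregulated members were those of MHC class II (6 of 7), erythroid cells (5 of 5) and fibroblasts and matrix (19 of 35), against 4.12% of all genes. Lists with few called members were those of glucose use (1 of 32 upregulated and 0 downregulated), the nuclear encoded respiratory chain (0 and 1 of 44), the unfolded protein response and heat shock (1 and 1 of 27), and polyamine metabolism (0 and 1 of 20).

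**Figure D2:**
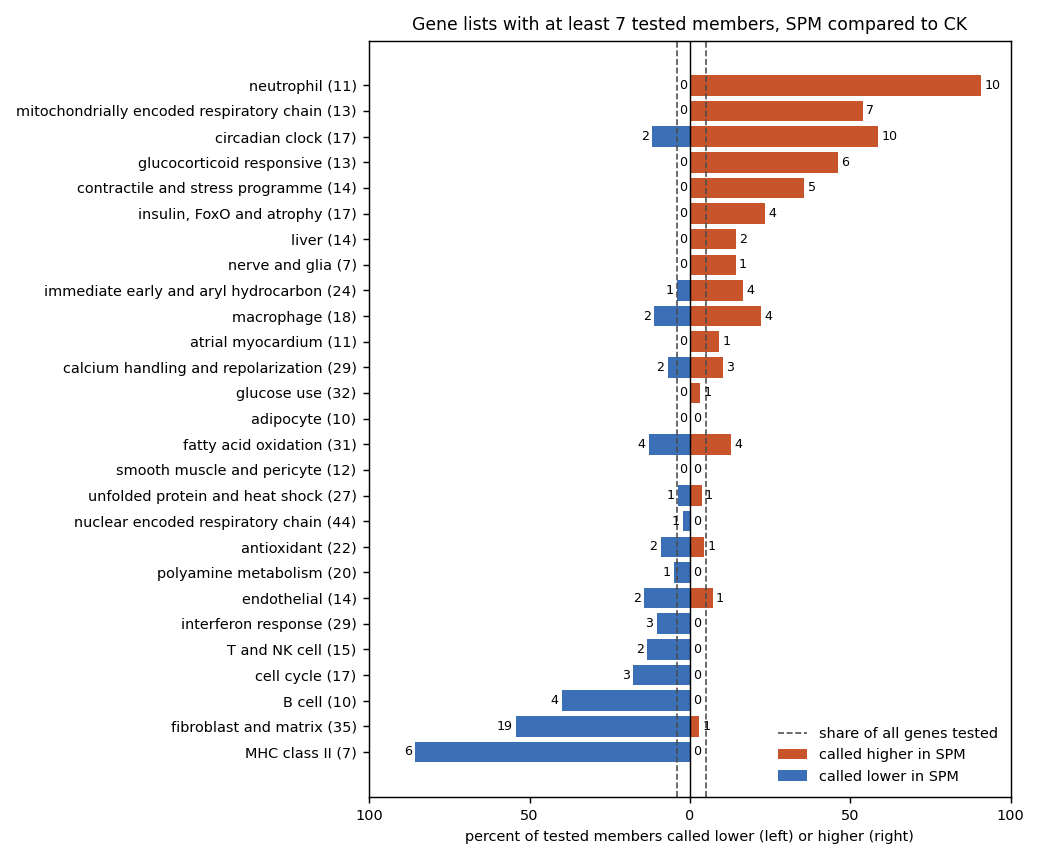
Percent of tested members called higher in SPM (orange-red, to the right) or lower (blue, to the left), for gene lists with at least 7 tested members. The number called is at the end of each bar and the number tested is in brackets. Lists with fewer tested members, such as that of erythroid cells, are not drawn. The dashed lines mark the shares among all genes tested, 5.08% and 4.12%. The lists were chosen with earlier results of these data known. Among the lists drawn, the neutrophil list reaches farthest to the right, with 10 of 11, and the MHC class II list farthest to the left, with 6 of 7.

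Of the 14 tested genes of the contractile and stress programme, 5 were upregulated and 0 were downregulated, and 4 were upregulated without SPM replicate 2 and 3 without SPM replicate 1. The list's median log2 fold change was -0.03, beside 0.0022 for all genes tested. The list entries Actc1, Acta1, Tnnc1 and Xirp1 had no match among the counted genes. Myh6, the fast alpha-myosin heavy chain of the adult mouse heart, lies beside Myh7 on GRCm38 (Myh6 at chr14:54941921-54966927 and Myh7 at chr14:54970684-54994626). Myh6 was at 22955, 23060.0 and 26096 CPM in CK and at 14043, 17517 and 20433 CPM in SPM. Its libraries did not overlap, but its log2 fold change of -0.47 ± 0.12 (adjusted p = 0.0217) stayed within the 1.5-fold limit. Compared per length, as FPKM, Myh7 made up 1.16%, 0.551% and 0.809% of the sum of both myosins in CK (mean 0.839% ± 0.304 SD, n = 3) and 25.5%, 16.0% and 8.97% in SPM (16.8% ± 8.29 SD, n = 3). The difference of 16.0 percentage points gave an exact two-sided permutation p of 0.1, the smallest that 3 against 3 libraries allow, and it was 16.4 percentage points without SPM replicate 2. The 2 genes are near-identical over long stretches, so reads may have been split between them in a way that these counts do not show. Myh7b, a further myosin chain, was at 36.5, 43.4 and 41.7 CPM in CK and at 74.0, 60.9 and 50.6 CPM in SPM, and it lost its call without CK replicate 1 or SPM replicate 1. Tnni1, the slow troponin I of the fetal heart, was at 0.994, 1.25 and 1.44 CPM in CK and at 3.62, 2.88 and 2.36 CPM in SPM. The adult thin-filament genes were not called, with Tnni3 at -0.20 and Tnnt2 at 0.21 on the log2 scale. Ankrd1, a titin-associated protein that responds to load, was at 919, 781 and 845 CPM in CK and at 1908, 1747 and 1624 CPM in SPM, a 2.07-fold rise (1.05 ± 0.08, adjusted p = 0.00036). Nppb, the B-type natriuretic peptide, was at 225, 138 and 117 CPM in CK and at 414, 295 and 199.7 CPM in SPM, so that the lowest SPM library overlapped with the highest CK library. Its call (adjusted p = 0.0437) was lost without CK replicate 2, CK replicate 3, SPM replicate 1 or SPM replicate 2 (adjusted p between 0.092 and 0.141).

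Of 29 genes of calcium handling and repolarization, 3 were upregulated and 2 were downregulated, and 3 and 1 without SPM replicate 2. Slc8a1, the sodium-calcium exchanger that removes calcium from the muscle cell, was at 179, 194 and 215 CPM in CK and at 435, 380.1 and 348 CPM in SPM (0.98 ± 0.10, adjusted p = 0.000748). Trdn, which anchors calsequestrin to the ryanodine receptor, was at 49.2, 84.0 and 91.5 CPM in CK and at 128, 132 and 137 CPM in SPM, and its log2 fold change of 0.82 went to 0.45 with the GC offset, below the limit. For Trdn the SPM libraries lay close together and CK replicate 1 lay far below the other CK libraries. Atp2a2, the calcium pump of the sarcoplasmic reticulum, was at 11782 to 13073 CPM in CK and at 8919.6 to 10801 CPM in SPM and was not called (-0.33 ± 0.07, adjusted p = 0.0142). Ryr2 and Casq2, the calcium release channel and the calcium store protein, had log2 fold changes of -0.26 and 0.13 and were not called. Among the channels, Kcne1, a subunit of the slow delayed rectifier, rose from 6.99, 8.31 and 9.17 CPM to 20.1, 17.5 and 13.04 CPM. The pacemaker channel Hcn2 was at 45.9, 41.6 and 40.7 CPM in CK and at 17.1, 19.1 and 21.5 CPM in SPM (-1.15 ± 0.10, adjusted p = 0.000406). Its relative Hcn4 had a log2 fold change of -0.71 and lost its call without CK replicate 2, CK replicate 3, SPM replicate 1 or SPM replicate 2. The inward rectifiers Kcnj2 and Kcnj11 had log2 fold changes of -0.20 and 0.39 and were not called. Without SPM replicate 2 the log2 fold changes were 0.999 ± 0.11 for Slc8a1 (adjusted p = 0.00362) and -1.15 ± 0.12 for Hcn2 (adjusted p = 0.00333).

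Of 31 genes of fatty acid oxidation, 4 were upregulated and 4 were downregulated, with and without SPM replicate 2. The SPM libraries lay all above CK for 20 of them and all below for 8, beside 22.8% and 23.5% of all genes tested, and the median log2 fold change was 0.27. Within the beta oxidation chain, Acadl, which opens the cycle on long chains, was at 976, 1006 and 1047 CPM in CK and at 1622, 1562 and 1531 CPM in SPM (0.64 ± 0.05, adjusted p = 0.000406). Decr1, which prepares unsaturated chains, was at 370.4, 391 and 398 CPM in CK and at 652, 630.3 and 639 CPM in SPM (0.73 ± 0.05). The libraries of each group lay close together for both genes, and the log2 fold change of Acadl fell below the limit with the GC offset (0.53). The most abundant genes of the chain and of uptake did not reach the limit, with Hadha at 0.38, Cd36, the fatty acid transporter, at 0.49, and Fabp3, the fatty acid carrier of the muscle cell, at 0.24 on the log2 scale.

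The genes known to respond to the fatty acid sensor PPAR alpha went both ways. Acot1, a thioesterase of fatty acyl-CoA with a close paralogue in Acot2, rose by 0.68 ± 0.09. Pdk4, a kinase that inhibits the pyruvate dehydrogenase complex, fell by 0.87 on the log2 scale, from 2821, 3253 and 3104 CPM to 1314, 1695 and 2001 CPM (SE 0.13, adjusted p = 0.00306). Angptl4, an inhibitor of lipoprotein lipase, was at 140.0, 135 and 108 CPM in CK and at 25.3, 41.0 and 52.8 CPM in SPM (-1.69 ± 0.23). Ucp3, a mitochondrial carrier that follows fatty acid load, was at 174, 192 and 164 CPM in CK and at 68.6, 91.0 and 111 CPM in SPM (-0.97 ± 0.15). Ehhadh, of the peroxisomal chain, fell by 0.64 and lost its call without SPM replicate 1 (-0.55). For these 4 downregulated genes SPM replicate 1 lay farthest below CK and SPM replicate 3 nearest to it. Without SPM replicate 2 Pdk4, Angptl4 and Ucp3 had log2 fold changes of -0.88, -1.71 and -0.97 (adjusted p = 0.0141, 0.00957 and 0.0157).

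Of the 5 genes of ketone use, 2 were downregulated and 0 were upregulated, with and without SPM replicate 2. Oxct1, the enzyme that lets muscle burn ketone bodies, was at 888, 895 and 1000.3 CPM in CK and at 421, 501 and 584 CPM in SPM (-0.89 ± 0.11, adjusted p = 0.00146). Bdh1, which oxidises beta-hydroxybutyrate, was at 38.6, 23.8 and 24.96 CPM in CK and at 3.28, 7.58 and 13.01 CPM in SPM (-1.88 ± 0.39, adjusted p = 0.0102). Without SPM replicate 2 the log2 fold changes were -0.88 for Oxct1 (adjusted p = 0.00917) and -1.84 for Bdh1 (adjusted p = 0.0406). Acat1, a thiolase, and the carrier Slc16a1 were not called, at 0.09 and 0.24. Of 32 genes of glucose use only Mpc1, a subunit of the mitochondrial pyruvate carrier, was called, with 6.29, 8.97 and 8.88 CPM in CK and 17.4, 12.9 and 13.9 CPM in SPM (0.87 ± 0.16, adjusted p = 0.00668). Slc2a4, the insulin-responsive glucose transporter GLUT4, was at 418, 382.5 and 396 CPM in CK and at 285, 299 and 314 CPM in SPM. Its log2 fold change of -0.41 (adjusted p = 0.0026) did not reach the limit, like those of Hk2 (-0.37) and the glycolytic enzyme Eno3 (-0.52).

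**Figure D3:**
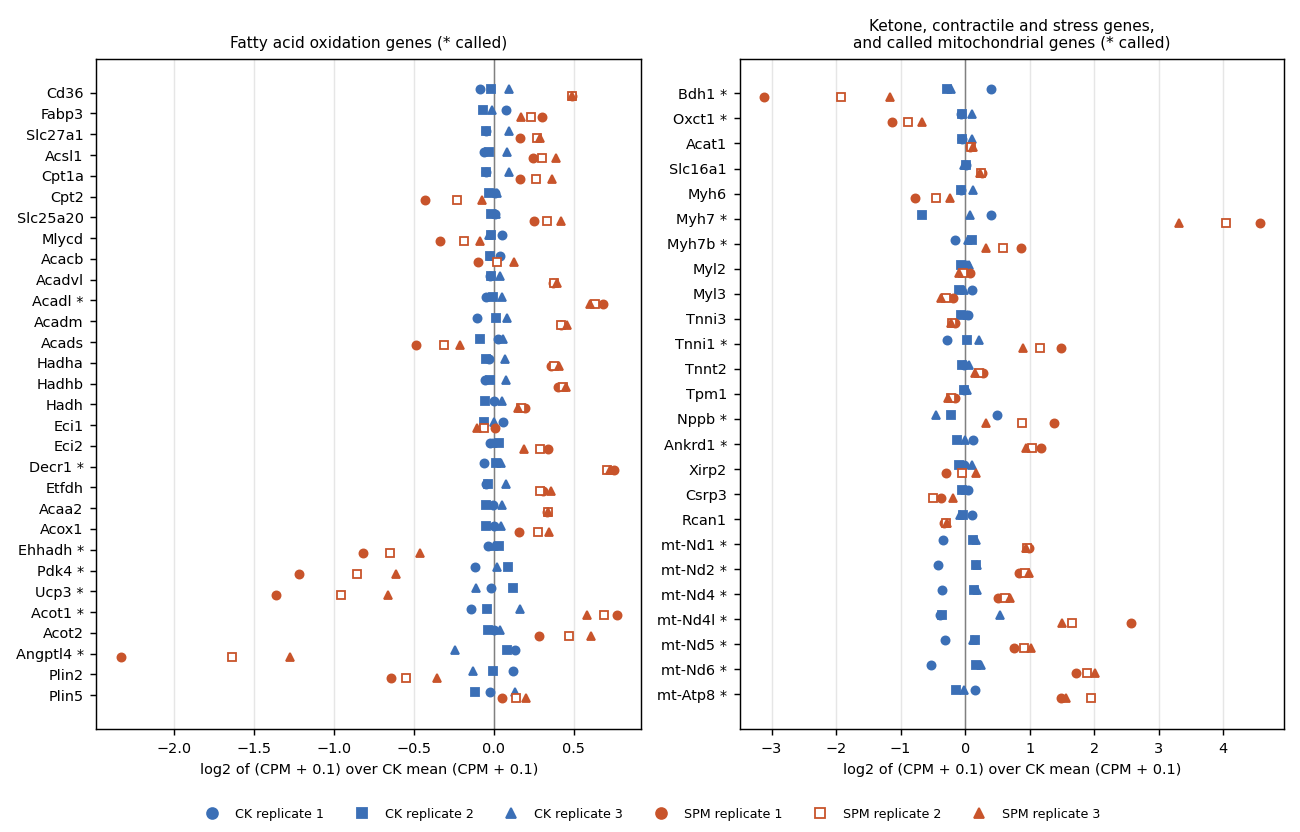
Level of each gene in each library relative to the CK mean, as the log2 of CPM plus 0.1, for genes of fatty acid oxidation (left) and for ketone, contractile and stress genes and the called mitochondrially encoded genes (right). CK is blue, SPM is orange-red, SPM replicate 2 is open, and an asterisk marks a called gene. Acadl and Decr1 lie together to the right of CK, whereas Pdk4, Ucp3 and Angptl4 lie to the left with SPM replicate 1 outermost.

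Of the 13 protein genes of the mitochondrial genome, 7 were upregulated and 0 were downregulated, and 6 were upregulated without SPM replicate 2. The median of the list on the log2 scale was 0.90. Mitochondrial genes took 13.7%, 16.2% and 15.4% of all counts in CK (15.1% ± 1.24 SD, n = 3) and 21.1%, 21.0% and 21.1% in SPM (21.1% ± 0.045 SD, n = 3). The difference of 5.98 percentage points gave an exact two-sided permutation p of 0.1, the smallest possible, and was 6.01 percentage points without SPM replicate 2. The Wilson 95% interval was 13.71% to 13.74% for CK replicate 1 and 21.08% to 21.11% for SPM replicate 1, and these intervals cover counting error only. The complex I genes mt-Nd1 (8938, 12294 and 12668 CPM in CK and 22362, 21989 and 21624 CPM in SPM) and mt-Nd6 (245, 398 and 423 CPM in CK and 1172, 1316 and 1432 CPM in SPM) rose by 0.96 ± 0.12 and 1.88 ± 0.18. The most abundant gene mt-Co1, of complex IV, was at 90744 to 96890.0 CPM in CK and at 129090.0 to 136120.0 CPM in SPM, and its log2 fold change of 0.49 stayed within the limit. With the GC offset 4 of the 13 were upregulated and the median was 0.50. The call of mt-Nd4 was lost without CK replicate 1 (0.46) or SPM replicate 3 (0.57), and that of mt-Atp8 without SPM replicate 2 (adjusted p = 0.0686). Copies of mitochondrial genes in the nuclear genome could share reads with them. Of the 44 tested nuclear genes of the same chain none was upregulated and only Cox7a1, the muscle form of a complex IV subunit, was downregulated, with 240.2, 248 and 222 CPM in CK and 125, 134 and 142 CPM in SPM (-0.82 ± 0.07, adjusted p = 0.000406). At an adjusted p below 0.05 alone, without the fold limit, the nuclear list had further members, such as Uqcrq (-0.57), Ndufs8 (-0.38) and Cox5b (-0.32). The median of the nuclear list was -0.12. For 27 of its 44 tested genes the SPM libraries lay all below CK, and for 3 all above. Among all genes tested these shares were 23.5% and 22.8%.

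The circadian clock of heart muscle is a loop in which Arntl (BMAL1) with Clock or Npas2 drives the Per, Cry and Nr1d genes, which then hold it back, and the D-box factors Dbp, Tef and Hlf carry the rhythm to output genes. Of 17 clock genes tested, 10 were upregulated and 2 were downregulated, and without SPM replicate 2 8 were upregulated and 2 were downregulated. By role, 6 of 8 repressors were upregulated, 3 of 4 output genes were upregulated and 1 was downregulated, and of 5 activators 1 was upregulated and 1 was downregulated. Arntl was at 39.8, 32.6 and 33.9 CPM in CK and at 11.6, 16.9 and 19.0 CPM in SPM (-1.17 ± 0.17, adjusted p = 0.0022). Per2 was at 8.85, 5.50 and 7.17 CPM in CK and at 49.3, 39.4 and 26.5 CPM in SPM, a 5.37-fold rise (2.42 ± 0.24, adjusted p = 0.000755). Dbp was at 12.7, 11.3 and 11.1 CPM in CK and at 55.6, 52.8 and 50.2 CPM in SPM, 4.52-fold higher (2.18 ± 0.08, adjusted p = 1.14e-05). The spread within each group was small for Dbp beside the distance between the groups. Without SPM replicate 2 the adjusted p was 0.01004 for Arntl, 0.00333 for Per2 and 0.000109 for Dbp. The nuclear receptors Nr1d1 and Nr1d2, which repress Arntl, rose by 0.79 ± 0.07 and 0.97 ± 0.11, and the E-box repressors Bhlhe40 and Bhlhe41 rose by 0.76 ± 0.13 and 1.07 ± 0.11. Tef and Hlf rose by 0.82 ± 0.14 and 0.88 ± 0.09, while Nfil3, which competes with them for the D-box, fell by 0.82. Clock (0.24), Npas2 (-0.50), Cry1 (-0.12) and Cry2 (0.37) were not called. Per1 was at 44.6, 71.5 and 99.4 CPM in CK and at 133, 136 and 137 CPM in SPM and lost its call without CK replicate 2 (adjusted p = 0.0692) or SPM replicate 2 (adjusted p = 0.0539). Rora lost its call without CK replicate 1, SPM replicate 1 or SPM replicate 2. No time of day is given in the labels for any library, so time of collection and group cannot be told apart.

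**Figure D4:**
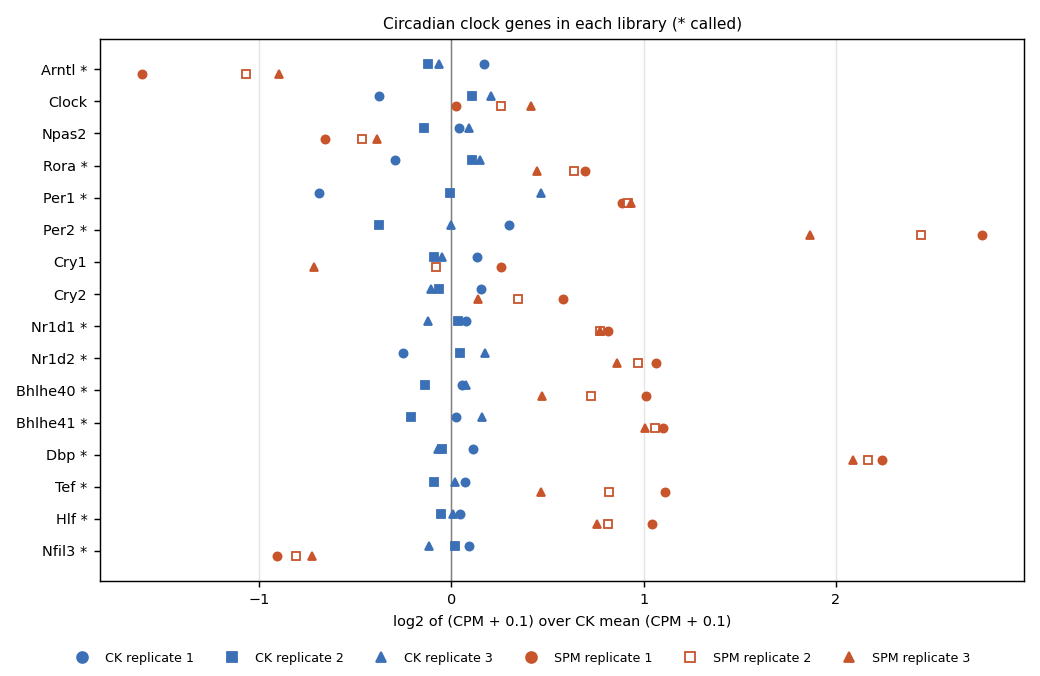
Level of circadian clock genes in each library relative to the CK mean, as the log2 of CPM plus 0.1, with CK in blue, SPM in orange-red, SPM replicate 2 open and called genes marked by an asterisk. Per2 and Dbp lie farthest to the right in SPM and Arntl farthest to the left.

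Arntl and its partners bind the E-box CACGTG, which is its own reverse complement. It occurs in 7.15% of all 32851 RefSeq promoter windows (250 bases before to 50 bases after a start, GRCm38.p6). Windows were found for 14 of the 17 clock genes, and 5 of their 19 windows held the motif, in Bhlhe41, Cry1, Per1 and Tef. Windows of the upregulated genes Bhlhe41 and Tef are shown because both kept their call in every alternative, with the E-box in capitals, 153 and 127 bases upstream of the start. Both are written 5′ to 3′ on the strand of the gene, Bhlhe41 on the minus strand at chr6:145865371-145865670 and Tef on the plus strand at chr15:81802423-81802722. A match is a description of the letters and not evidence of binding.
Bhlhe41: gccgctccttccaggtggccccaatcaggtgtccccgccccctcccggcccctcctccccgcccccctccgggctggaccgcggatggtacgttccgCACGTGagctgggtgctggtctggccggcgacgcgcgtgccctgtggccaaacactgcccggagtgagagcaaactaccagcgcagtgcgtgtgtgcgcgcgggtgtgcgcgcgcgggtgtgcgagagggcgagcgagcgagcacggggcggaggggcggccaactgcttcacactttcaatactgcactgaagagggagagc
Tef: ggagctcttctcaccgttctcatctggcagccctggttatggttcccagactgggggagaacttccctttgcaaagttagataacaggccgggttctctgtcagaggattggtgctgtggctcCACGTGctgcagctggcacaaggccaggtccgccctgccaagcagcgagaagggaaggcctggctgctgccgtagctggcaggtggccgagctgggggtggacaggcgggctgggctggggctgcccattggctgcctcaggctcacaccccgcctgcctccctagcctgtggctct

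Of 13 genes that respond to glucocorticoids 6 were upregulated and 0 were downregulated, and 4 were upregulated without SPM replicate 2. The median log2 fold change was 0.52. Fkbp5, a co-chaperone that restrains the glucocorticoid receptor, was at 33.9, 26.5 and 40.8 CPM in CK and at 149, 115 and 93.0 CPM in SPM (1.82 ± 0.19, adjusted p = 0.000995). Zbtb16, a transcription factor, was at 68.5, 56.0 and 61.2 CPM in CK and at 196, 149.6 and 109 CPM in SPM (1.29 ± 0.18). In both genes SPM replicate 1 was highest and no library overlapped. Cdkn1a, an inhibitor of the cell cycle, rose by 0.76 ± 0.13, and Lcn2, which is also on the neutrophil list, rose by 1.92 ± 0.21. Per1 belongs to this list as well as to the clock. Mt2, a metallothionein at 2.20 CPM or less, lost its call without CK replicate 1, SPM replicate 1 or SPM replicate 2 (adjusted p between 0.0527 and 0.0807). The receptors Nr3c1 (-0.09) and Nr3c2 (0.32), Sgk1 (0.52) and Tsc22d3 (0.41) were not called. Of 17 genes of insulin signalling, FoxO and atrophy, 4 were upregulated and 0 were downregulated, and 2 were upregulated without CK replicate 2 or SPM replicate 1. Pik3r1, the regulatory subunit of PI3 kinase, was at 65.8, 69.6 and 86.7 CPM in CK and at 182, 158 and 143 CPM in SPM (1.12 ± 0.12, adjusted p = 0.00106). Ddit4, an inhibitor of mTOR, rose by 0.82 ± 0.18. Foxo3, a transcription factor held back by insulin, rose by 0.63 ± 0.10 and lost its call without CK replicate 2 or SPM replicate 1 (0.55 each). Sesn1 lost its call without CK replicate 1, CK replicate 2 or SPM replicate 1. Without SPM replicate 2 Irs1, the insulin receptor substrate, was also downregulated (-0.62), beside -0.58 with it. The atrophy ligase Trim63 (0.14) and the kinases Akt1 (-0.06) and Akt2 (-0.14) were not called.

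Of 35 genes of fibroblasts and the extracellular matrix 19 were downregulated and 1 was upregulated, both with and without SPM replicate 2, and 17 downregulated with the GC offset. The median log2 fold change was -0.72. Fibrillar collagens fell. Col3a1 was at 509, 507 and 487 CPM in CK and at 110.4, 181 and 238 CPM in SPM (-1.505 ± 0.22, adjusted p = 0.0027). Col1a1 was at 237, 233 and 225 CPM in CK and at 74.7, 97.3 and 123 CPM in SPM (-1.23 ± 0.15, adjusted p = 0.00136). CK libraries lay close together for both genes, and SPM replicate 1 was lowest. Without SPM replicate 2 the log2 fold changes were -1.52 ± 0.26 for Col3a1 (adjusted p = 0.0124) and -1.22 ± 0.18 for Col1a1 (adjusted p = 0.00837). The collagens of basement membranes fell as well, Col4a1 by 1.11, Col4a2 by 0.98 and Col15a1 by 1.65 on the log2 scale, and Col6a1, Col6a2 and Col6a3 by 0.72, 1.12 and 1.32. Sparc, which guides collagen assembly, was at 870.3, 807 and 781 CPM in CK and at 322, 364 and 397 CPM in SPM (-1.18 ± 0.08, adjusted p = 0.00036). Serpinh1, the chaperone of collagen, was at 297, 261 and 283 CPM in CK and at 122, 133 and 140.1 CPM in SPM (-1.09 ± 0.07). Of the crosslinking enzymes, Loxl1 and Loxl2 fell by 0.85 and 1.03, and Lox was the gene of the list that rose, with 6.64, 8.31 and 11.1 CPM in CK and 20.7, 17.6 and 16.3 CPM in SPM (1.07 ± 0.18). Fbn1, the fibrillin of microfibrils, lost its call without CK replicate 1 (-0.58) or SPM replicate 1 (-0.49). With the GC offset Col5a1 and Col6a1 (-0.56 each) and Fbn1 (-0.49) were below the fold limit, and Postn, periostin, was called (-0.95). Fn1 (-0.27), Bgn (-0.25), Lum (-0.07) and Dcn (0.31, and -0.07 with the GC offset) were not called. The 4 markers of fibroblast identity, Pdgfra, Ddr2, Dpt and Gsn, were not called either, with log2 fold changes of 0.24, -0.21, -0.45 and -0.20. Their summed level was 3627 to 3794 CPM in CK and 3036 to 3426 CPM in SPM. Gsn made up nearly all of that sum, with 3630, 3457 and 3453 CPM in CK and 2874, 3065 and 3254 CPM in SPM. The sum therefore does not describe the other markers. The part of fibroblast content in the fall of the matrix genes was not tested. In a whole tissue, fewer cells of a type and less RNA per cell cannot be told apart.

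MHC class II genes, which present antigen on macrophages, dendritic cells and B cells, were lower, with 6 of 7 downregulated in every alternative. The SPM libraries lay all below CK for all 7, beside 23.5% of all genes tested. Cd74, the invariant chain, was at 431, 351 and 299 CPM in CK and at 166, 154 and 140.2 CPM in SPM (-1.23 ± 0.13, adjusted p = 0.000854). H2-Ab1 was at 239, 178 and 159.9 CPM in CK and at 81.1, 72.9 and 68.8 CPM in SPM (-1.37 ± 0.14), and H2-Aa, H2-Eb1, H2-DMa and H2-DMb1 fell by 1.21, 1.19, 1.18 and 1.26. In SPM these genes spread less between libraries than in CK. The list of macrophage genes as a whole did not move the same way. Of its 18 genes 4 were upregulated and 2 were downregulated, and 2 were upregulated and none downregulated without SPM replicate 2. Without CK replicate 1, CK replicate 3 or SPM replicate 1, 2 were upregulated as well. The most abundant markers Lyz2 (0.11), Csf1r (-0.26) and C1qa (0.21) were not called, and the summed level of the list was 868 to 1137 CPM in CK and 899 to 1477 CPM in SPM. Lyve1, a hyaluronan receptor of resident cardiac macrophages and lymphatic vessels, was at 17.3, 22.1 and 17.7 CPM in CK and at 60.3, 56.9 and 53.1 CPM in SPM, 2.98-fold higher (1.57 ± 0.10, adjusted p = 0.00036). Cd163, a scavenger receptor of resident macrophages, rose by 0.71 ± 0.09. Ccr2, the receptor of recruited monocytes, Cx3cr1, the fractalkine receptor, and Spic, a transcription factor of iron-recycling macrophages, had log2 fold changes of 1.04, -1.04 and -2.02 and lost their calls without SPM replicate 2 (adjusted p = 0.0725, 0.0588 and 0.105). Ccr2 also lost its call without CK replicate 1, CK replicate 3 or SPM replicate 1, and Spic without CK replicate 2 or SPM replicate 1.

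Neutrophil genes were higher in SPM, with 10 of 11 tested genes upregulated, 9 without SPM replicate 2, and 3 of the 14 on the list below the filter. The median log2 fold change was 2.68. Genes with few counts in CK, such as Ngp and Il1r2, could pass the filter through the SPM libraries alone, so this share and median lean upwards. With a minimum of 1 CPM in at least 3 libraries, 6 were tested and 6 upregulated (median 2.02), under the same limit. Only 4 of the 14 reached 1 CPM in every library. The levels were low, with a summed level of 19.6, 32.3 and 11.0 CPM in CK and 87.2, 66.8 and 46.5 CPM in SPM. S100a8 and S100a9, the subunits of calprotectin, were at 1.41, 1.08 and 0.753 CPM and at 2.95, 1.79 and 1.70 CPM in CK, and at 11.9, 7.38 and 4.37 CPM and at 26.5, 17.7 and 10.7 CPM in SPM. Csf3r, the receptor of granulocyte colony-stimulating factor, was at 5.13, 4.97 and 2.19 CPM in CK and at 12.98, 12.5 and 10.2 CPM in SPM (1.53 ± 0.27, adjusted p = 0.00522). Ngp, a granule protein, had 2 counts in all CK libraries and 115 counts in SPM, a ratio of 59.5 with a counting interval of 16.1 to 498, and Il1r2, a decoy receptor of interleukin-1, had 2 and 65 counts, a ratio of 33.7 with an interval of 8.95 to 284. Without SPM replicate 2 the ratios were 56.4 and 37.9. Cxcr2, the chemokine receptor of neutrophils, lost its call without CK replicate 2, CK replicate 3 or SPM replicate 2 (adjusted p between 0.0563 and 0.0604). The granule gene Ltf was not called (17.2 CPM in CK replicate 2 and 0.619 CPM or less in the other libraries).

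Of 10 B cell genes 4 were downregulated. The count was 2 without SPM replicate 2, CK replicate 1 or CK replicate 2, 6 without SPM replicate 3 and 7 without CK replicate 3. Cd79b, a subunit of the B cell receptor, was at 6.25, 4.45 and 1.90 CPM in CK and at 1.18, 1.33 and 1.28 CPM in SPM (-1.73 ± 0.40, adjusted p = 0.0138). Fcrla, an Fc receptor-like protein of B cells, was at 1.96, 0.908 and 0.721 CPM in CK and at 0.0619, 0.130 and 0.0328 CPM in SPM. Pax5 and Ighm lost their calls without CK replicate 1, CK replicate 2 or SPM replicate 2 (adjusted p between 0.053 and 0.0804). The summed level of the B cell list was 90.8, 72.8 and 40.3 CPM in CK and 32.5, 38.7 and 40.8 CPM in SPM, so the highest SPM library overlapped with CK replicate 3. Of 15 T and NK cell genes, 2 were downregulated, Lck and Gzma, and neither was called without SPM replicate 2 (adjusted p = 0.134 and 0.144), without CK replicate 1 or without SPM replicate 1. Lck was also not called without CK replicate 3, nor Gzma without CK replicate 2 or SPM replicate 3. Of the 5 erythroid genes tested all were downregulated, and 3 without SPM replicate 2, SPM replicate 1, CK replicate 1 or CK replicate 2. Hbb-bs, a beta globin, was at 1697, 1412 and 809 CPM in CK and at 379, 493 and 657 CPM in SPM (-1.36 ± 0.27, adjusted p = 0.00813), and Hba-a2, an alpha globin, fell by 1.83. The duplicated globin genes can share reads, so the division between them is uncertain. Hbb-bt and Slc4a1 lost their calls without CK replicate 1, CK replicate 2, SPM replicate 1 or SPM replicate 2, and Slc4a1 also without SPM replicate 3. The part of blood left in the tissue in the MHC class II and neutrophil results was not tested. Of 29 interferon response genes 3 were downregulated, Isg15 (-1.04 ± 0.18), Bst2 (-0.64) and Ifi44 (-0.66). The count was 1 without SPM replicate 2 and 5 without CK replicate 3. Bst2 and Ifi44 were not called without CK replicate 1, SPM replicate 1 or SPM replicate 2, and Ifi44 also not without CK replicate 2.

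**Figure D5:**
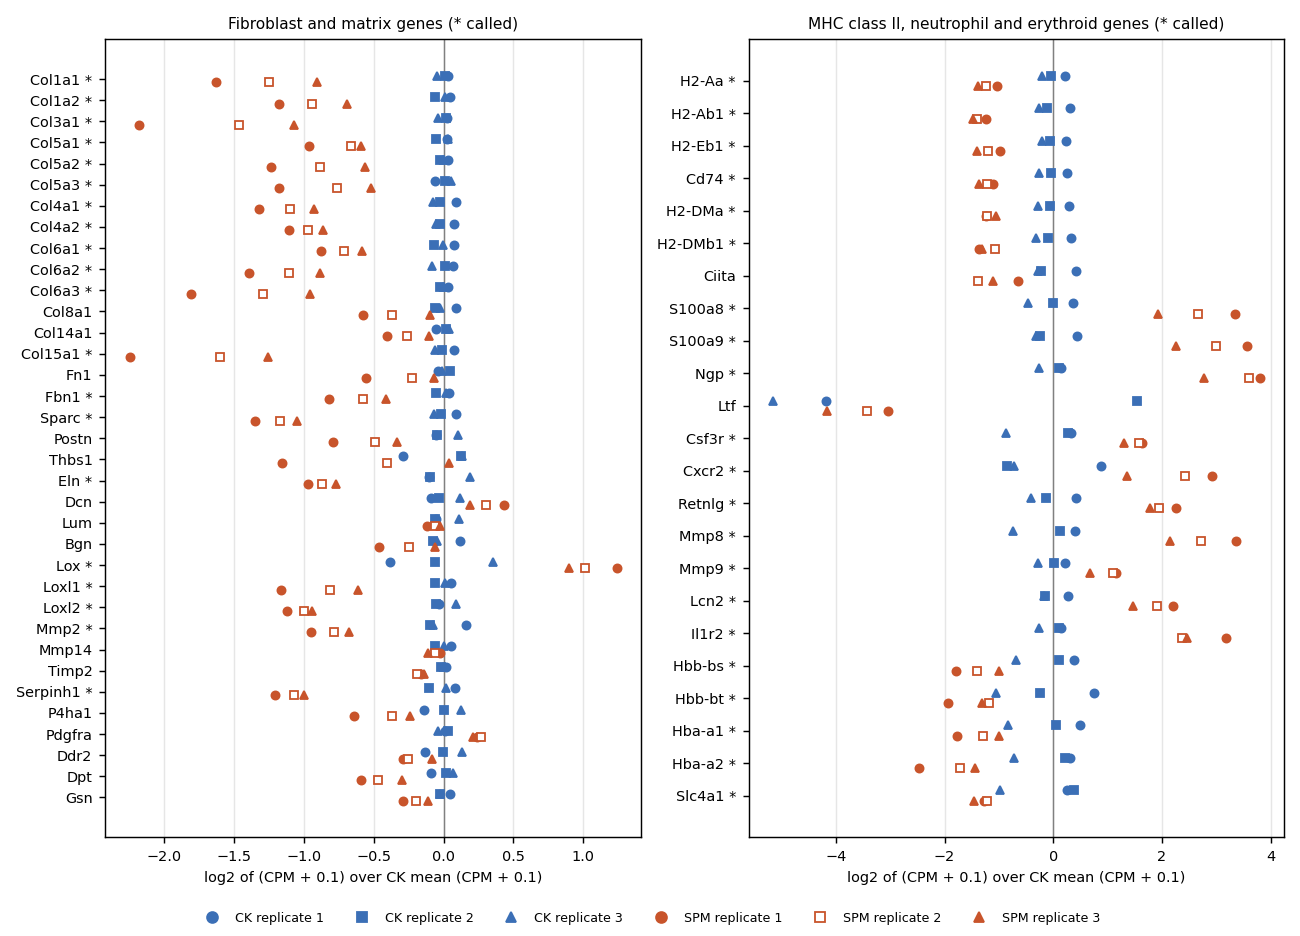
Level of each gene in each library relative to the CK mean, as the log2 of CPM plus 0.1, for 35 genes of fibroblasts and matrix (left) and for the genes of MHC class II, neutrophils and erythroid cells (right), with CK in blue, SPM in orange-red, SPM replicate 2 open and an asterisk on called genes. Most collagens lie to the left of CK with SPM replicate 1 outermost, and neutrophil genes other than Ltf lie to the right.

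Of the 14 endothelial genes, 1 was upregulated and 2 were downregulated, with and without SPM replicate 2. The pan-endothelial markers Pecam1 (0.09), Cdh5 (-0.33) and Eng (-0.08) were not called. Cldn5, a tight junction protein, was at 135, 112 and 95.7 CPM in CK and at 37.9, 47.5 and 54.9 CPM in SPM (-1.29 ± 0.15, adjusted p = 0.00127). Tie1, a receptor of the angiopoietin system, fell by 0.63 and lost its call without CK replicate 1 (-0.55) and with the GC offset (-0.46). Vwf, the clotting factor stored in endothelium, was at 266, 253 and 277 CPM in CK and at 374, 419 and 453 CPM in SPM (0.65 ± 0.08) and lost its call without SPM replicate 3 (0.58). None of the 12 smooth muscle and pericyte genes was called, and 3 of them, Rgs5, Pdgfrb and Kcnj8, had log2 fold changes of 0.19, -0.24 and -0.45.

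Of 20 tested genes of polyamine metabolism, 0 were upregulated and 1 was downregulated, and the median was 0.06. Without CK replicate 2, CK replicate 3 or SPM replicate 1, 2 were upregulated, Azin1, which inhibits the antizymes, and Atp13a3, a polyamine transporter. With all libraries Azin1 was at 44.5, 53.5 and 53.7 CPM in CK and at 65.9, 77.5 and 82.8 CPM in SPM (0.58 ± 0.10, adjusted p = 0.00564), and Atp13a3 had a log2 fold change of 0.55. With the GC offset 1 gene was upregulated, Slc3a2 (0.59), and 0 were downregulated. Odc1, the enzyme that makes putrescine, was at 99.2, 102 and 102 CPM in CK and at 109.8, 112 and 119 CPM in SPM (0.16 ± 0.06, adjusted p = 0.0595). Arg2, an arginase that supplies ornithine, was at 0.289, 0.170 and 0.262 CPM in CK and at 1.08, 0.453 and 0.328 CPM in SPM and was not called (1.37 ± 0.56, adjusted p = 0.097). Srm, spermidine synthase, was at 15.5, 15.3 and 15.0 CPM in CK and at 10.3, 8.77 and 9.79 CPM in SPM (-0.67 ± 0.09, adjusted p = 0.00198), and its log2 fold change of -0.47 with the GC offset was below the limit. Sms, spermine synthase, was at 33.3, 36.1 and 33.6 CPM in CK and at 38.8, 41.8 and 42.8 CPM in SPM and was not called (0.26). Both groups were separate for Srm and for Sms, in opposite directions. Of the breakdown enzymes, Smox, spermine oxidase, was at 41.1, 34.5 and 35.3 CPM in CK and at 27.8, 25.6 and 26.4 CPM in SPM (-0.47 ± 0.08, adjusted p = 0.00506), below the fold limit. Sat1, which acetylates spermine and spermidine, and Paox, which oxidises the acetylated forms, had log2 fold changes of -0.08 and -0.01. The antizymes Oaz1 (-0.03) and Oaz2 (-0.21), and Eif5a (-0.10), the protein that carries hypusine made from spermidine, were not called, and neither was Amd1 (0.39), which supplies the aminopropyl group.

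Genes under the aryl hydrocarbon receptor, a sensor of aromatic compounds, included Cyp1a1 and Cyp1b1. Cyp1b1 was at 16.1, 14.3 and 12.7 CPM in CK and at 48.2, 47.7 and 46.2 CPM in SPM (1.72 ± 0.09, adjusted p = 0.00014), so its SPM libraries were even where those of Cyp1a1 were not. Ahrr, the repressor of the receptor, rose by 0.75 ± 0.14, and the receptor gene Ahr (0.57) and Tiparp (0.45) were not called. The core of the binding element, GCGTG, searched on both strands, occurs in 32.4% of all promoter windows and in all 5 windows of the 5 genes of this group that have one. The window of Cyp1a1, which kept its call in every alternative, is shown with the motif in capitals, 54 bases upstream of the start, on the plus strand at chr9:57697363-57697662 (RefSeq, GRCm38.p6).
Cyp1a1: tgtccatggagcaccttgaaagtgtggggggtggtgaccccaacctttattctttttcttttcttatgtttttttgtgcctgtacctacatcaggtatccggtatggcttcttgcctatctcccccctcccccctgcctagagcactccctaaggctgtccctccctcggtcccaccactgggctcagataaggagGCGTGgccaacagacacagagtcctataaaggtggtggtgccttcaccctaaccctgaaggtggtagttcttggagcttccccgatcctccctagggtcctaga

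Of the 24 immediate early and aryl hydrocarbon genes together, 4 were upregulated and 1 was downregulated. That gene, Klf4, lost its call without SPM replicate 2 (adjusted p = 0.0941), CK replicate 2, CK replicate 3 or SPM replicate 1. The number downregulated was 5 without CK replicate 3 or SPM replicate 3, with Fos, Jun and Dusp1 among them, was 4 without the filter on low counts, and was 0 without SPM replicate 1 or SPM replicate 2. Immediate early genes varied within CK, with Fos at 95.3, 33.3 and 11.0 CPM and Egr1 at 193, 59.0 and 31.9 CPM, and neither was called. Of 27 genes of the unfolded protein response and heat shock, 1 rose and 1 fell. Hsp90b1, a chaperone of the endoplasmic reticulum, was at 50.8, 68.9 and 69.4 CPM in CK and at 102, 104 and 103 CPM in SPM (0.71 ± 0.11) and lost its call without CK replicate 1 (0.57) and with the GC offset (0.50). Hspa1b lost its call without any of CK replicates 2 and 3 or of the SPM replicates. Hspa5, the main chaperone of the endoplasmic reticulum (0.05), and Xbp1, a transcription factor of that response (-0.01), were not called. Of 22 antioxidant genes 1 rose and 2 fell. Nqo1, a quinone reductase, rose by 0.66 ± 0.10 and lost its call without SPM replicate 1 (0.56), and Gclm, which modifies the first enzyme of glutathione synthesis, was at 12.0, 11.8 and 9.83 CPM in CK and at 6.75, 6.44 and 6.96 CPM in SPM (-0.74 ± 0.11, adjusted p = 0.00324). Txnrd2 lost its call without any single library other than CK replicate 3 (adjusted p between 0.0516 and 0.128). Of 17 cell cycle genes 3 were downregulated, and 1 without CK replicate 1, CK replicate 2, SPM replicate 2 or SPM replicate 3. Of the 3, only Rrm2, of ribonucleotide reductase, was also called without SPM replicate 2, with 4.91, 3.92 and 3.47 CPM in CK and 1.46, 1.49 and 1.61 CPM in SPM (-1.43 ± 0.21, adjusted p = 0.00271). Ccnb1 and Mcm5 lost their calls without CK replicate 1, CK replicate 2, SPM replicate 2 or SPM replicate 3.

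Markers of other tissues that a heart sample can hold were measured in the same way. Of 14 liver genes 2 were upregulated. Ahsg, a secreted glycoprotein of the liver, was at 9.81, 11.7 and 12.7 CPM in CK and at 41.9, 34.3 and 29.8 CPM in SPM (1.63 ± 0.14, adjusted p = 0.000437), and Tat lost its call without CK replicate 3 (adjusted p = 0.0607). Alb, albumin, was at 2.41, 28.7 and 1.08 CPM in CK and at 249, 114 and 0.296 CPM in SPM and was not called (adjusted p = 0.111). The liver list as a whole summed to 21.3, 97.4 and 26.1 CPM in CK and to 431, 220.5 and 47.9 CPM in SPM, so the SPM libraries differed widely among themselves. Without SPM replicate 3, 13 of the 14 liver genes were upregulated, and with the replicate block 9. The part of liver RNA in the results was not tested. Of 11 atrial genes 1 was upregulated, Nppa, the atrial natriuretic peptide (577, 353 and 492 CPM in CK and 567, 725 and 858 CPM in SPM), and it was not called without CK replicate 2, CK replicate 3, SPM replicate 2 or SPM replicate 3. The atrial list summed to 2855 to 3461 CPM in CK and to 3127 to 4375 CPM in SPM, its markers Myl4 (-0.37) and Myl7 (0.09) were not called, and the part of atrial tissue in the results was not tested. Of 7 genes of nerve and glia only Cdh19 was called (0.98 ± 0.19), and not without SPM replicate 2, and none of 10 adipocyte genes or of the 2 lung genes tested was called.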

How the data were processed

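Hearts of 3 CK and 3 SPM libraries were compared by RNA sequencing. The authors filtered reads with fastp 0.18.0 and deposited a table of raw gene counts and a table of FPKM values, the FPKM being counts divided by gene length and library size. The submitters' processing notes also list Bowtie 0.12.2 and the builds mm8 and mm9, without a role. For the aligner, the counting tool and the annotation, the sources used here give no name. The labels name a TruSeq RNA kit, and the methods name oligo(dT) beads and Ribo-Zero. Symbols and gene coordinates were taken from GENCODE M21 (GRCm38) for 22820 of 22851 IDs, and 31 IDs stayed without a name.

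Counts were filtered with filterByExpr, scaled by TMM and tested with edgeR 4.0.16 (quasi-likelihood test; limits of 0.05 on the Benjamini-Hochberg adjusted p and of 1.5 on the fold change) in R 4.3.3, on the 6 libraries alone. SE is the absolute log2 fold change over the square root of the F statistic. Shares were tested by an exact two-sided permutation test (scipy 1.17.1, numpy 2.4.6, pandas 2.3.3, Python 3.11.15), and figures were drawn with matplotlib 3.10.9. Alternatives were DESeq2 1.42.0, limma 3.58.1 on log2 of FPKM plus 0.1 or 1, other fold limits, filters and scalings, a GC offset (lowess span 0.3), a replicate block, each library left out, and, chosen after seeing the data, DESeq2 and the GC offset without SPM replicate 2. Scripts were tested on simulated data. Genes were named by a rule: the 10 largest rises and 10 largest falls among called genes without overlap between the groups, with a mean of at least 1 CPM, then of each list the 3 most abundant members and up to 4 called members with the largest change, then Myh6, Myh7 and 7 polyamine enzymes. Other list members named in the text were chosen after their values were seen. The members and lists were chosen with earlier results of these data known. Of 590 list entries 561 were matched in the table. Entries without a match, such as Acta1, Pln, Cpt1b and Txnip, have no value here. The 3 columns of diabetic mice without spermine were not used here. Some members of the lists are counted with their list but are not reported here by name.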

Additional observations from a re-analysis of the deposited data

How the results depend on the processing

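The number of genes called was 1342 (741 higher, 601 lower). With a fold limit of 1.3 it was 2532 (1329 higher, 1203 lower), and with no fold limit 3989 (1900 higher, 2089 lower). By limma on log2 of FPKM plus 0.1 it was 1481 (578 higher, 903 lower) and on log2 of FPKM plus 1 it was 683 (243 higher, 440 lower), so that lower calls outnumbered higher ones, and the cause was not tested. With each library left out in turn it ranged from 771 to 1589 (432 to 901 higher, 339 to 688 lower), lowest without SPM replicate 2 and highest without SPM replicate 3. The GC offset without SPM replicate 2 gave 587 (350 higher, 237 lower), and DESeq2 without it gave 981. DESeq2 gave 1399, RLE scaling 1350, no filter on low counts 1406, a minimum of 1 CPM 1246, leaving out mitochondrial genes 1342 (771 higher), the GC offset 1056, and the GC offset with the replicate block 1022. Deviations from the group mean correlated at r = -0.0609, 0.191 and 0.217 between same-numbered libraries, and at -0.309 to 0.237 between differently numbered ones. With 3 libraries a group these values cannot show whether a replicate number marks a batch. The replicate block gave 1282 calls (734 higher, 548 lower). The fitted coefficient of variation between libraries was 0.108 with the block and 0.124 without it. The difference in mitochondrial share was 3.53 percentage points without mt-Co1 and ranged from 5.31 to 6.52 with each library left out. The difference in Myh7 share ranged from 11.6 to 19.9 percentage points with each library left out and was 16.2 from counts. None of the 102 named genes that were called changed sign in any alternative run, and 60 of them kept their call in all of those run. These genes were chosen as called, and the alternatives reused the same libraries, so a change of sign was unlikely from the start. Library totals of 29901300 to 33990348 counts limit genes under 1 CPM, and 3 libraries a group limit the permutation tests to p = 0.1.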

Other observations

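Several genes were high in a single library. In CK replicate 2, Cfd, an adipocyte gene, was at 102 CPM, beside 10.6 and 25.5 CPM in CK replicates 1 and 3 and 27.6 to 35.7 CPM in SPM. Cyp2e1, a liver and adipocyte gene, was at 39.3 CPM in that library, beside 5.74 and 10.2 CPM in the other CK libraries and 13.2 to 33.4 CPM in SPM. In CK replicate 1 the immediate early gene Dusp1 was at 311 CPM, beside 215 and 147 CPM in CK replicates 2 and 3 and 94.1 to 171 CPM in SPM.

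Pde6a, a phosphodiesterase of rod cells, had 3 counts in all CK libraries and 29 counts in SPM, a ratio of 10.01 with a 95% counting interval of 3.10 to 51.4, and without SPM replicate 2 the ratio was 9.27 (2.71 to 49.1). It did not pass the filter on low counts. The interval covers counting error only.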
